A study of Mus musculus with 12 samples.

Results

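The splicing machinery was followed here through 66 genes of the 32288 gene and transgene entries counted in bulk RNA-seq of mouse metaphyseal osteoblasts. They were taken by gene symbol. The rule kept the numbered *Srsf* genes, the *Snrp* genes with a letter a to g or a digit, the *Hnrnp* genes, the numbered *Sf3a* and *Sf3b* genes, the *U2af* genes and *Lsm1* to *Lsm8*, and added *Prmt5*, *Prmt1*, *Wdr77* and *Clns1a*. By role there were 11 SR proteins, 7 Sm core ring genes and 4 *Snrp* genes of the U1 or U2 small nuclear ribonucleoprotein (snRNP). The rest were 9 SF3A and SF3B subunits, 3 U2AF genes, 8 LSM ring genes, 20 heterogeneous nuclear ribonucleoproteins (hnRNPs) and 4 arginine methylation genes. Of these 4, *Prmt5*, *Wdr77* and *Clns1a* serve the methylation of Sm proteins, and *Prmt1* was grouped with them. The figures label all 4 as Sm methylation. The rule reads symbols only.

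The sorted cells formed 4 groups. All carried *Osx-CreERT2*, a tamoxifen-dependent Cre made from the osteoblast gene *Osx* (*Sp7*), and *mTmG*, a reporter that turns membrane GFP (mGFP) on after recombination, and all mice had received tamoxifen. Juvenile (n = 4) and adult (n = 4) libraries were mGFP+ cells of *Osx-CreERT2; mTmG* mice of 3 and 8 weeks of age, with the bones of 2 male mice pooled for each library. The *c-Myc* group (n = 2) also carried *LSL-tTA*, a tet-off activator that needs Cre, and a tetO-driven *c-Myc* transgene at *Col1a1*. The *c-Myc* + *R172H* group (n = 2) carried in addition *Trp53-LSL-R172H*, a Cre-activated mutant allele of the p53 gene. Both induced groups were treated at 3 weeks of age and collected 7 days after tamoxifen, from mice of both sexes and with a 5 mm trim of the shaft against 2 mm in the controls, and their dissection protocol names 5-week-old mice. Per the paper's legends, the mice of the 2 ages had tamoxifen on 3 consecutive days and were collected 2 days after the last. The induced mice had 2 consecutive treatments. The methods of the paper also name doxycycline or tetracycline in drinking water for tet-off mice, stopped before analysis. Induced and control libraries differ together in alleles, age at collection, tamoxifen schedule and interval, this antibiotic, trim and mix of sexes. These cannot be told apart. The number of mice in an induced library is not stated. The sex of each induced library is not labelled. *Xist*, expressed from the inactive X of females, was at 0.0456 and 0.183 CPM in replicate 1 and at 233 and 211 CPM in replicate 2 of the *c-Myc* and *c-Myc* + *R172H* groups. No source states whether the 2 libraries of an induced group came from separate litters, so p-values measure the spread between these libraries.

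Introns are removed by the spliceosome, which is built on each transcript from snRNPs and many other proteins. The U1 snRNP pairs with the start of the intron, U2AF and the U2 snRNP with its SF3A and SF3B subunits recognise the end of the intron and the branch site, and SR proteins and hnRNPs push the choice of sites one way or the other. A ring of Sm proteins holds the RNA of most snRNPs, and before assembly some of these proteins are methylated on arginine by PRMT5 with its partners WDR77 and pICln. The MYC transcription factor is known to raise the expression of many splicing genes in growing cells.

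Library totals ran from 9066154 to 15684412 counts. The 4 induced libraries stood apart from the 8 controls before any splicing gene was considered. *Myc* was at 39.8 to 52.2 CPM (counts scaled to library size) in the controls and at 624 to 747 CPM in the induced libraries. The osteoblast collagen genes *Col1a1* and *Col1a2* together took 48.6% to 57.5% of the counts in juvenile, 31.9% to 51.4% in adult, 13.6% to 16.6% in *c-Myc* and 8.71% to 8.90% in *c-Myc* + *R172H* libraries, while the noncoding entry *Gm26917* took 4.70% to 10.5% in the controls and 26.5% to 29.4% in the induced libraries. All levels, with those of *Xist* and *Myc* above, are therefore CPM on 1 scale set by trimmed mean of M values (TMM) over the 12 libraries. Levels are compared between genes only per kb. Summed over 8 proliferation genes, levels were 91.3 to 124 CPM in juvenile, 87.2 to 167 in adult, 602 to 653 in *c-Myc* and 622 to 669 in *c-Myc* + *R172H* libraries. Summed over 10 chondrocyte genes they were 18217 to 35193, 42565 to 133349, 1847 to 2103 and 864 to 1033 CPM in the same order, all 10 being above 3 counts in every library. All 8 osteoblast markers were above that floor in every library too, and their summed level went from 570992 to 839351 CPM in juvenile and 342868 to 618271 CPM in adult libraries to 99748 to 132182 CPM in *c-Myc* and 56350 to 58282 CPM in *c-Myc* + *R172H* libraries. The 10 blood cell markers summed to at most 11.5 CPM, with *Ptprc*, the gene of CD45, at 0 in the juvenile libraries, and the 6 endothelial markers summed to at most 9.77 CPM. The 5 osteoclast markers, with *Ocstamp* and *Calcr* at 0 throughout, summed to 203 to 332 CPM in juvenile and 221 to 411 in adult libraries. They summed to 83.9 to 104 CPM in *c-Myc* and 52.2 in *c-Myc* + *R172H* libraries. The 5 marrow stromal markers summed to 269 to 360, 335 to 585, 79.4 to 154 and 63.2 to 82.7 CPM in the same order. In bulk samples fewer cells of a type and less RNA per cell cannot be told apart.

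Reads of 86 bases can be shared between gene copies, and splicing genes have many pseudogenes. Of the 66 genes, 30 shared at least 1 stretch of 86 bases with a transcript of a gene elsewhere, 9 shared over 10% of such stretches and 0 shared over 50%. The largest shares were 37.1% for *Hnrnpf*, 35.6% for *Sf3b4* and 26.5% for *Hnrnpa1*. Exons of another gene covered over 10% of the exon bases of 10 genes, led by *Snrpf* with 85.4% and *U2af1l4* with 72.8%, so their counts are uncertain because no strand setting is stated for the counting. Among the genes tested, 1 is X-linked, *Hnrnph2*.

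As a whole, the 66 genes took 0.187% to 0.256% of the counts of juvenile libraries, 0.222% to 0.326% in adult, 0.734% to 0.820% in *c-Myc* and 0.931% to 0.960% in *c-Myc* + *R172H* libraries. Their summed TMM-scaled levels were 2826 ± 104 CPM (SD, n = 4) in juvenile and 2829 ± 244 CPM (n = 4) in adult libraries, against 5801 ± 96.3 CPM (n = 2) and 5982 ± 79.8 CPM (n = 2) in the induced groups. The map of log2 levels by library shows the same split, gene by gene. *Srsf12*, an SR protein gene, had 8 counts in all 12 libraries and was not tested anywhere. *Lsm5* had 154 counts and was tested only where induced libraries were in the fit.

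**Figure D1:**
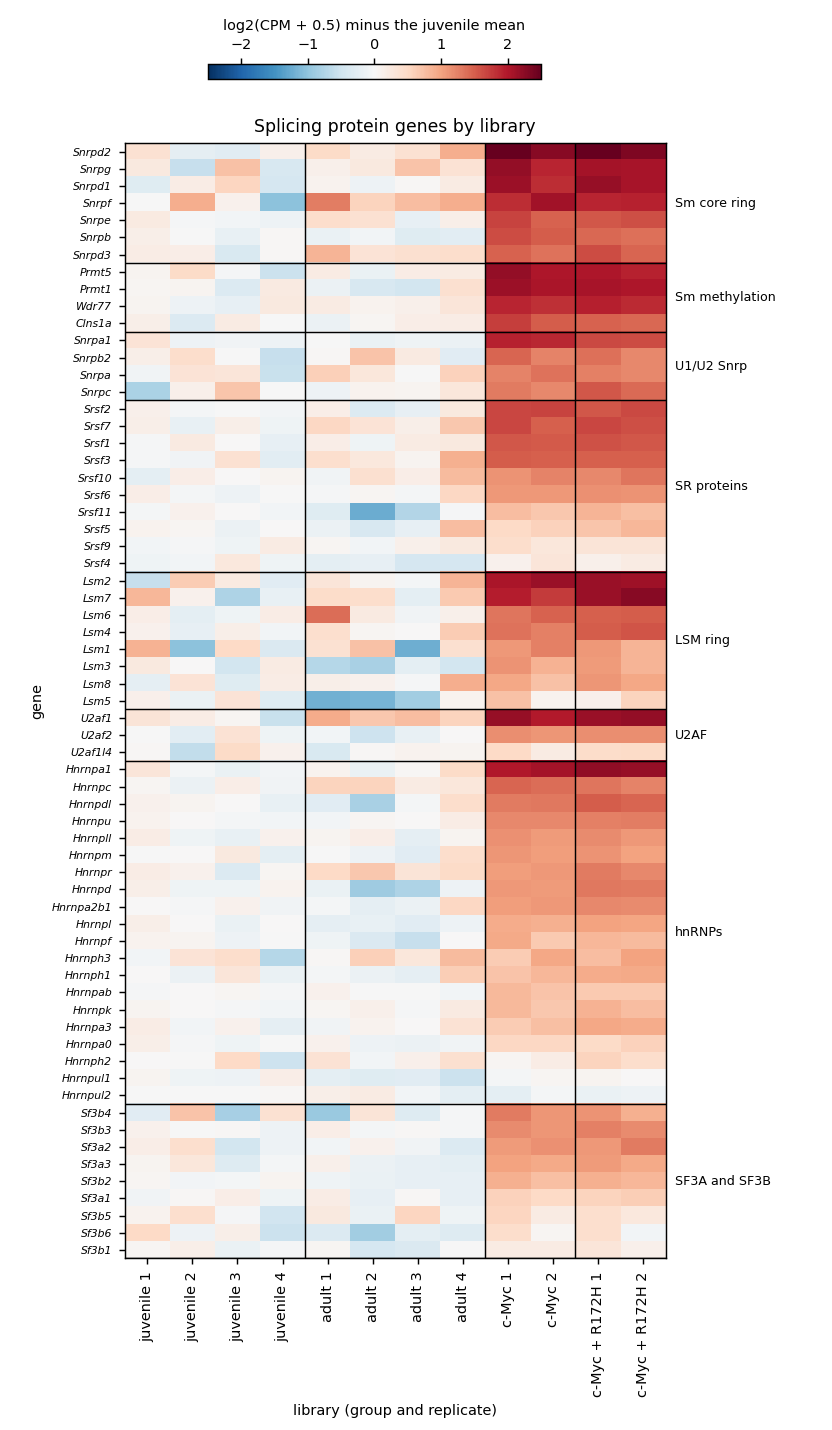
Level of 65 splicing genes (rows, grouped by role and all but *Srsf12*) in each of the 12 libraries (columns, grouped by group). Colour is log2(CPM + 0.5) minus the mean of the 4 juvenile libraries, red for higher and blue for lower. The 4 columns of induced libraries on the right are red for nearly all genes, whereas adult columns are mostly pale. *Sf3b1*, *Hnrnpul1* and *Hnrnpul2* stay pale across all columns.

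The comparison of *c-Myc* with juvenile libraries sets induced osteoblasts against controls that also differ in the other ways given above. Genes of the splicing machinery were mostly higher in the *c-Myc* libraries. Of 65 genes tested, 54 rose at an adjusted p below 0.05 (edgeR quasi-likelihood test with Benjamini-Hochberg adjustment over all genes), where 28.4% of the 12588 genes tested did, and 0 fell, where 25.0% of all genes did. With a log2 fold change of at least 1 as well, 40 rose, where 18.4% of all genes did. The count of 0 lower genes was also 0 with DESeq2, and the unadjusted p was below 0.05 for 56 of the 65 in either direction, where 58.8% of all genes passed. The median log2 fold change of the 65 genes was 1.09, against 0.04 over all genes tested, and 63 of 65 values were positive (51.3% of all genes). In 57 genes both *c-Myc* libraries lay above all 4 juvenile libraries (35.7% of all genes), and in 1 gene, *Hnrnpul2*, below (28.7%). Scaling by library totals moved the median of all genes to 0.87 and that of the splicing genes to 1.92. The difference between the medians was 1.05 with TMM and with totals, so changes are read relative to all genes. The split of all genes called was 3577 higher and 3149 lower with TMM, and 6803 and 1116 with totals. The lower collagen, chondrocyte, osteoclast and marrow stromal levels and the higher proliferation genes given above moved with this result. Their part in it was not tested. Without *c-Myc* replicate 2 the median of the splicing genes was 1.12, and without *c-Myc* replicate 1 it was 1.08. The part of sex in these values was not tested. Such a fit leaves 1 library in the *c-Myc* group, which is assumed to vary like the other groups.

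**Figure D2:**
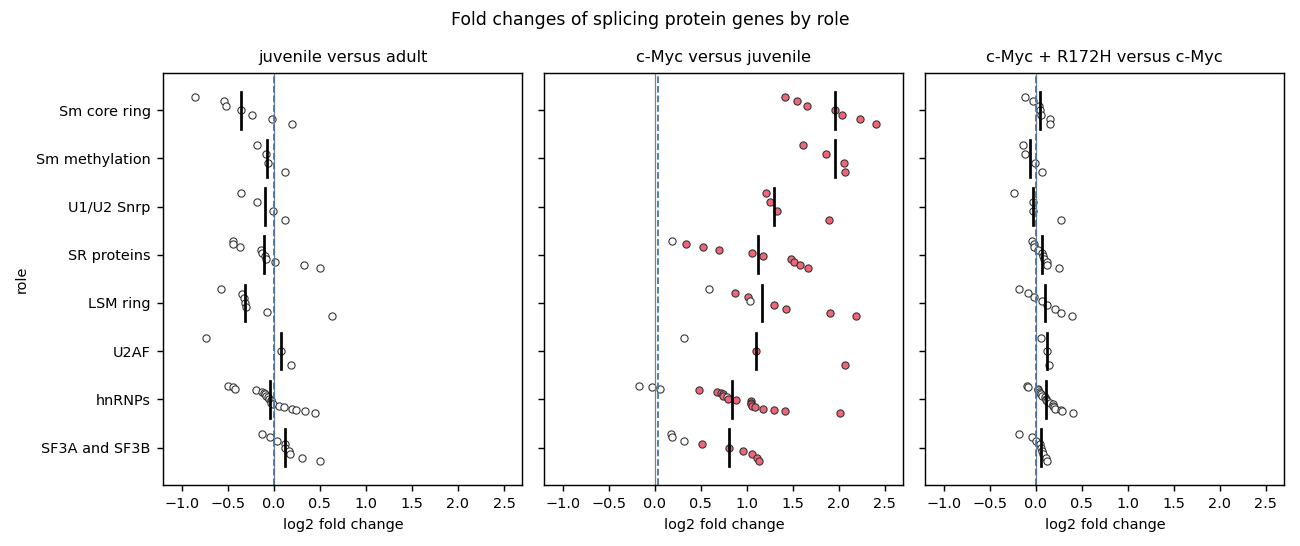
Log2 fold changes (x axis) of the splicing genes by role (y axis) in 3 comparisons, 1 panel each. Each point is a gene, filled where it passed an adjusted p of 0.05 in edgeR. The black bar is the median of the role, the dashed blue line the median of all genes tested and the grey line 0. In the middle panel the Sm core ring and the arginine methylation genes (labelled Sm methylation) lie farthest to the right with medians of 1.96. In the other panels no point is filled.

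The Sm core ring rose as a whole. All 7 of its genes were called higher in *c-Myc* libraries, with a median log2 fold change of 1.96 and a range of 1.42 to 2.40. *Snrpd2*, which encodes SmD2 (chr7:19149722-19153542, GRCm38), was at 11.9, 7.63, 7.23 and 9.81 CPM in the juvenile libraries, 12.7, 10.4, 11.9 and 17.2 CPM in the adult, 53.3 and 45.5 CPM in the *c-Myc* and 53.0 and 47.4 CPM in the *c-Myc* + *R172H* libraries. Every induced library was above every control. Its log2 fold change in *c-Myc* against juvenile libraries was 2.40 ± 0.18 (SE, edgeR adjusted p = 3.79e-07), or 5.27-fold, the largest among the 65 genes. *Snrpb*, which encodes SmB and is the ring gene with the highest level per kb, was at 48.7, 43.3, 38.6 and 44.9 CPM in juvenile, 39.2, 41.6, 35.4 and 36.2 in adult, 136 and 125 in *c-Myc* and 120 and 115 in *c-Myc* + *R172H* libraries. The controls and the induced libraries did not overlap, and the log2 fold change was 1.55 ± 0.11 (edgeR adjusted p = 1.73e-07). *Snrpg* and *Snrpd1* were among the lowly expressed genes and rose by 2.23 ± 0.39 and 2.03 ± 0.25 on the log2 scale. *Snrpe* and *Snrpd3* rose by 1.65 ± 0.22 and 1.42 ± 0.19. *Snrpf* had 0.869 to 4.74 CPM in the juvenile libraries and 9.45 and 11.4 CPM in the *c-Myc* libraries, a log2 fold change of 1.96 ± 0.41, and its exons are among those shared with other genes.

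The 4 arginine methylation genes rose by a similar amount. *Prmt5* encodes the methyltransferase that makes symmetric dimethylarginine on SmB, SmD1 and SmD3. Its levels were 23.7, 31.9, 22.2 and 15.5 CPM in juvenile, 26.3, 20.1, 25.7 and 26.2 in adult, 106 and 93.4 in *c-Myc* and 93.6 and 87.0 in *c-Myc* + *R172H* libraries. No induced library fell within the range of the controls, and the log2 fold change in *c-Myc* against juvenile libraries was 2.06 ± 0.19 (edgeR adjusted p = 1.91e-06). *Wdr77*, whose WD-repeat protein binds PRMT5, was at 20.5, 17.8, 17.0 and 23.3 CPM in juvenile and at 74.4 and 70.7 CPM in *c-Myc* libraries, a log2 fold change of 1.86 ± 0.13. *Clns1a* encodes pICln, the chaperone that carries Sm proteins to PRMT5. It was at 22.2, 15.5, 23.1 and 19.6 CPM in juvenile and at 66.9 and 57.5 CPM in *c-Myc* libraries, a log2 fold change of 1.61 ± 0.15. *Prmt1*, the main asymmetric arginine methyltransferase with hnRNPs among its substrates, was at 35.4, 36.2, 26.8 and 40.3 CPM in juvenile and at 152 and 142 CPM in *c-Myc* libraries, a log2 fold change of 2.06 ± 0.13. In all 4 genes both *c-Myc* libraries lay above every juvenile library. For *Wdr77*, exons of neighbouring genes covered 35.7% of its exon bases.

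**Figure D3:**
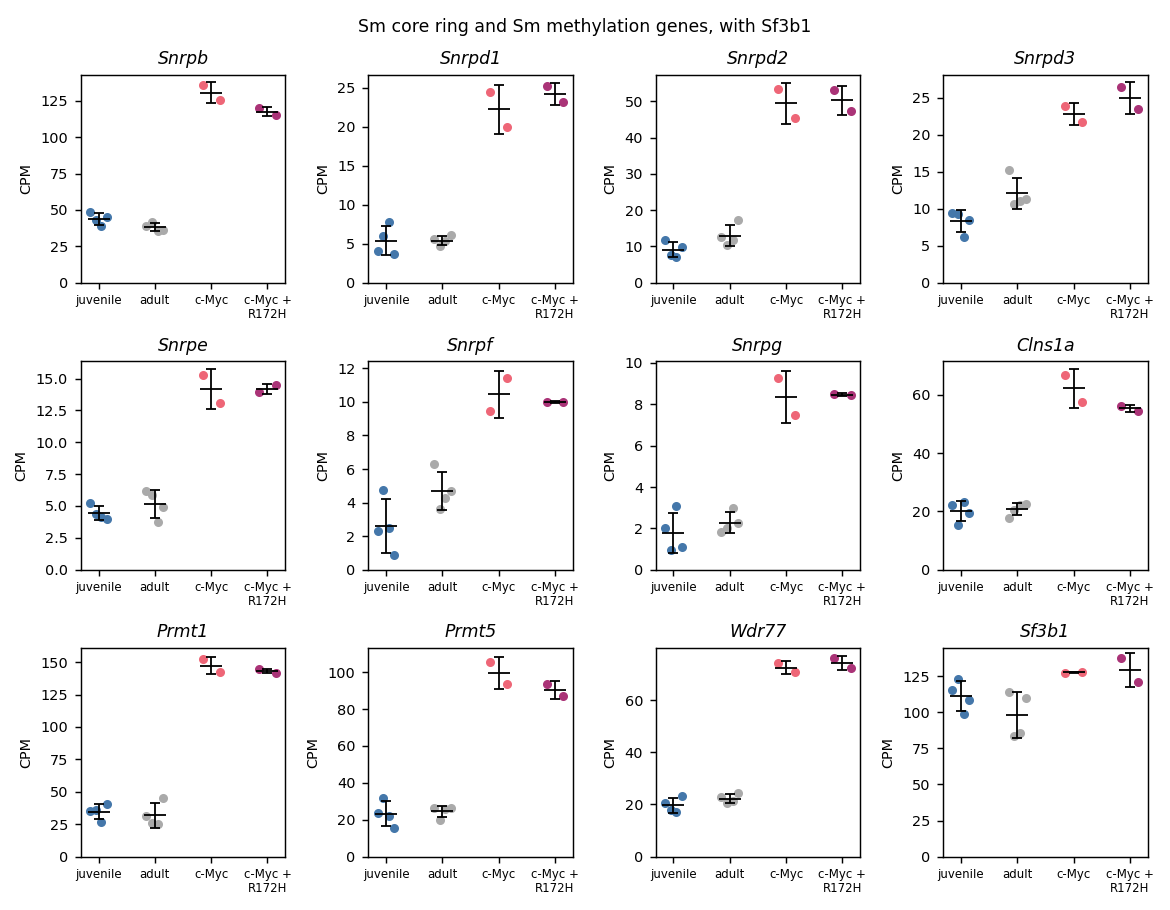
TMM-scaled CPM of the 7 Sm core ring genes, the 4 arginine methylation genes and *Sf3b1* (y axis, starting at 0) in the 4 groups (x axis). Points are libraries, and the horizontal mark and bar are the mean ± SD (n = 4, 4, 2 and 2). In the first 11 panels the induced libraries lie above all juvenile libraries. In the *Sf3b1* panel the groups lie close together, with means of 111 CPM in juvenile and 128 CPM in *c-Myc* libraries.

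Promoters were read for the motif that MYC and its partner MAX are known to bind, CACGTG, since the *c-Myc* groups carry an induced *c-Myc* gene. RefSeq promoter windows on GRCm38, 250 bases before to 50 after a start site, were found for 57 of the 66 genes, in 74 windows. The motif is its own reverse complement, so 1 strand was searched. It was in 10 of the 74 windows (13.5%), against 7.15% of all 32851 windows and 10.0% of the windows of genes tested in the *c-Myc* comparison. The 9 genes with it were *Prmt1*, *Clns1a* and *Wdr77* of the methylation genes, *Snrpa* of the U1 and U2 genes, and *Hnrnpa3*, *Hnrnpd*, *Hnrnpf*, *Hnrnpm* and *Hnrnph2*. None of the 5 Sm ring genes with a window, the 11 SR protein genes or the 6 LSM genes held it in these windows. The motif of ETS factors, CCGGAA, searched on both strands, was in 41.9% of the 74 windows, against 14.9% of all windows and 27.3% of those of genes tested. The letters of the 2 motifs cannot overlap. In the *c-Myc* comparison the 9 genes with CACGTG had a median log2 fold change of 1.05, with 8 called higher. The 47 tested genes with a window but without it had a median of 1.06, with 40 called higher. The windows are a description of these letters and not of bound sites.

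The upstream window of *Snrpa*, with 2 copies, is shown whole because no annotated exon lies in it. It is chr7:27196272-27196521 on the minus strand of GRCm38 (RefSeq), the 250 bases before the start site, with capitals on CACGTG, whose first bases lie 73 and 32 bases before the start.
Snrpa: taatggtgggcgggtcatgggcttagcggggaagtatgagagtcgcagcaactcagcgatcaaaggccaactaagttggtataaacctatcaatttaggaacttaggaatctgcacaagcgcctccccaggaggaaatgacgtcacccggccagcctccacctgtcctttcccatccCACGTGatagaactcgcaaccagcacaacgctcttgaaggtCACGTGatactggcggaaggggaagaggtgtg

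For the other genes with the motif, 30 bases around it are shown so that its position and flanks can be compared. Capitals again mark CACGTG. In *Prmt1* (chr7:44986584-44986613, minus strand), *Clns1a* (chr7:97696531-97696560, plus), *Hnrnpf* (chr6:117907713-117907742, plus), *Hnrnpd* (chr5:99978953-99978982, minus) and *Hnrnpa3* (chr2:75659229-75659258, plus) it begins 181, 114, 79, 32 and 18 bases before the start. In *Wdr77* (chr3:105959495-105959524, plus), *Hnrnpm* (chr17:33685428-33685457, minus) and *Hnrnph2* (chrX:134601182-134601211, plus) it begins at bases 10, 14 and 16 of the transcribed part.
Prmt1: acccaatcgtcaCACGTGctgggtgagaca
Clns1a: gggaaccgatgcCACGTGacaaaagccagc
Wdr77: gcagaggtacacCACGTGtgcggtccctcc
Hnrnpf: cgagcgggcgctCACGTGgcccgaggcgcc
Hnrnpd: gcgctccggagcCACGTGaccgggacgcgc
Hnrnpa3: cggatagcacatCACGTGgtgactggcccc
Hnrnpm: gtcgttcggggtCACGTGagcgcgcaggcg
Hnrnph2: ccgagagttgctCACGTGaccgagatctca

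The *Snrp* genes for U1 and U2 proteins all rose, 4 of 4, with a median log2 fold change of 1.29 in *c-Myc* against juvenile libraries. *Snrpa1*, which encodes the A′ protein of the U2 snRNP, was at 17.2, 12.2, 12.5 and 12.3 CPM in juvenile, 13.4, 12, 12.4 and 12 in adult, 52.1 and 51.0 in *c-Myc* and 43.1 and 42.4 in *c-Myc* + *R172H* libraries. All induced libraries were above all controls, and the log2 fold change was 1.90 ± 0.15 (edgeR adjusted p = 6.80e-07). *Snrpa* and *Snrpc*, for the A and C proteins of the U1 snRNP, rose by 1.25 ± 0.20 and 1.21 ± 0.29. *Snrpb2*, for the B″ protein of the U2 snRNP, rose by 1.33 ± 0.25.

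Among the SR protein genes, 9 of 10 tested rose in *c-Myc* libraries, with a median log2 fold change of 1.12, and 8 of 10 with relative log expression or upper-quartile scaling. The spread among them was wide. *Srsf2*, also known as SC35 and a component of nuclear speckles, was at 80.9, 71.1, 72.7 and 70.3 CPM in juvenile, 82.6, 57.8, 63.4 and 86.8 in adult, 235 and 238 in *c-Myc* and 216 and 234 in *c-Myc* + *R172H* libraries. Induced and control libraries were fully separate, with a log2 fold change of 1.66 ± 0.09 (edgeR adjusted p = 3.48e-08). *Srsf1*, the prototype of the family, was at 77.1, 92.1, 78.8 and 67.5 CPM in juvenile and at 231 and 227 CPM in *c-Myc* libraries, a log2 fold change of 1.51 ± 0.11. *Srsf7* and *Srsf3* rose by 1.58 ± 0.13 and 1.48 ± 0.14. Below them came *Srsf10*, *Srsf6* and *Srsf11*, which rose by 1.18 ± 0.14, 1.06 ± 0.10 and 0.70 ± 0.10, and *Srsf5*, which rose by 0.52 ± 0.11 but was not called with all 12 libraries in 1 fit (0.54, edgeR adjusted p = 0.0640). *Srsf9* rose by 0.34 ± 0.13 (edgeR adjusted p = 0.0463), and *Srsf4* did not pass the test at 0.18 ± 0.13 (0.269). *Srsf4* was at 35.6, 36.4, 46.2 and 35.6 CPM in juvenile libraries and at 41.3 and 47.3 CPM in *c-Myc* libraries, so that the groups overlapped.

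The LSM proteins form 2 rings with shared subunits, the nuclear LSM2 to LSM8 ring on the U6 RNA and the cytoplasmic LSM1 to LSM7 ring of mRNA decay. Of 8 genes, 6 rose in *c-Myc* libraries, with a median log2 fold change of 1.17. *Lsm2* was at 1.64, 4.43, 3.20 and 2.11 CPM in juvenile, 3.44, 2.82, 2.59 and 5.22 in adult, 12.6 and 13.7 in *c-Myc* and 13.7 and 13.3 in *c-Myc* + *R172H* libraries. The induced libraries were all above the controls, and the log2 fold change was 2.19 ± 0.32 (edgeR adjusted p = 8.35e-05). *Lsm7*, *Lsm6* and *Lsm4* rose by 1.91 ± 0.40, 1.43 ± 0.19 and 1.30 ± 0.13, and *Lsm3* and *Lsm8* by 1.02 ± 0.26 and 0.87 ± 0.26. *Lsm1*, the subunit found only in the decay ring, had a log2 fold change of 1.04 ± 0.42 and missed the threshold (edgeR adjusted p = 0.0556). Its juvenile libraries were scattered, at 8.22, 1.86, 6.26 and 3.23 CPM, below the 9.59 and 10.9 CPM of the *c-Myc* libraries, and without juvenile replicate 1 it was called at 1.45. *Lsm5*, at 0.621 to 1.25 CPM in juvenile libraries, gave 0.59 ± 0.64 (0.460).

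The 2 subunits of the U2AF dimer both rose. *U2af1* encodes the small subunit, which reads the AG at the end of the intron. It was at 10.4, 9.49, 8.48 and 5.46 CPM in juvenile, 16.2, 13.4, 14.5 and 12.4 in adult, 38.8 and 34.1 in *c-Myc* and 38.5 and 39.4 in *c-Myc* + *R172H* libraries. The 4 groups formed 3 levels that did not overlap, with juvenile lowest, adult between and the induced groups highest. The log2 fold change in *c-Myc* against juvenile libraries was 2.07 ± 0.20 (edgeR adjusted p = 2.81e-06), and 17.7% of its stretches of 86 bases occur in other genes. *U2af2*, for the large subunit that binds the pyrimidine tract, was at 65.6, 55.2, 85.5 and 61.3 CPM in juvenile and at 149 and 141 CPM in *c-Myc* libraries, a log2 fold change of 1.10 ± 0.14. The relative *U2af1l4* did not pass, at 0.31 ± 0.27 (edgeR adjusted p = 0.359).

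The hnRNPs are abundant proteins on nascent transcripts, many of which mask splice sites. Of 20 genes, 16 rose in *c-Myc* libraries, with a median log2 fold change of 0.84, lower than in the roles above. *Hnrnpa1*, a well-studied repressor of exon inclusion, stood out within the family. It was at 88.1, 68.8, 63.4 and 68.3 CPM in juvenile, 76.4, 64.1, 73.1 and 100.2 in adult, 288 and 304 in *c-Myc* and 335 and 325 in *c-Myc* + *R172H* libraries. Induced and control libraries were far apart, and the log2 fold change was 2.01 ± 0.12 (edgeR adjusted p = 5.58e-08). Its relative *Hnrnpa2b1* was at 127, 125, 137 and 119 CPM in juvenile and at 263 and 271 CPM in *c-Myc* libraries, a log2 fold change of 1.05 ± 0.08, whereas *Hnrnpa0* rose by 0.48 ± 0.09. *Hnrnpc*, which binds runs of uridine, *Hnrnpdl* and *Hnrnpu*, a nuclear scaffold protein, rose by 1.41 ± 0.10, 1.29 ± 0.10 and 1.18 ± 0.08. *Hnrnpk* and *Hnrnpab* rose by 0.72 ± 0.08 and 0.74 ± 0.08. The 4 hnRNP genes that did not pass were *Hnrnph3* at 0.79 ± 0.34 (edgeR adjusted p = 0.0655), *Hnrnph2* at 0.06 ± 0.21 (0.830), *Hnrnpul1* at -0.03 ± 0.10 (0.835) and *Hnrnpul2* at -0.17 ± 0.10 (0.151). *Hnrnpul2* was at 90.1, 90.6, 90.5 and 92.9 CPM in juvenile and at 76.4 and 87.6 CPM in *c-Myc* libraries. Its value turned to 0.66 (edgeR adjusted p = 0.000806) with scaling by library totals, and that of *Hnrnph2* turned to -0.02 with upper-quartile scaling.

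The SF3A and SF3B subunits of the U2 snRNP divided into risers and genes near 0. Of 9 genes, 6 rose in *c-Myc* libraries, with a median log2 fold change of 0.80. *Sf3b3* was at 104, 96.2, 98.1 and 87.8 CPM in juvenile, 108, 93.6, 97.6 and 94.7 in adult, 220 and 208 in *c-Myc* and 232 and 220 in *c-Myc* + *R172H* libraries. The induced libraries were all above the controls, and the log2 fold change was 1.13 ± 0.09 (edgeR adjusted p = 5.79e-07). *Sf3a2*, *Sf3a3*, *Sf3b2* and *Sf3a1* rose by 1.05 ± 0.19, 0.96 ± 0.16, 0.80 ± 0.09 and 0.51 ± 0.10. *Sf3b4* rose by 1.11 ± 0.32 (edgeR adjusted p = 0.0114), with 1.01 (adjusted p = 0.0894) without *c-Myc* replicate 1, where 1 library is left in the group. *Sf3b1*, the scaffold subunit at the branch site, was at 116, 123, 99.1 and 108 CPM in juvenile, 114, 83.5, 86 and 110 in adult, 128 and 128 in *c-Myc* and 138 and 121 in *c-Myc* + *R172H* libraries. The *c-Myc* libraries lay just above the juvenile ones, and the log2 fold change of 0.17 ± 0.11 did not pass (edgeR adjusted p = 0.190). *Sf3b6*, whose protein touches the branch adenosine, and *Sf3b5* gave 0.19 ± 0.31 (0.626) and 0.32 ± 0.22 (0.235).

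Levels of different genes were set side by side only as CPM per kb of merged exon, which reads low for genes with long exons that are rarely used. In juvenile libraries the highest were *Hnrnpa0* at 50.9 ± 3.70, *Hnrnpab* at 42.5 ± 1.17, *Hnrnpl* at 28.1 ± 2.5, *Hnrnpk* at 27.9 ± 1.09 and *Srsf2* at 24.9 ± 1.65 CPM per kb (SD, n = 4). *Hnrnpl* and *Hnrnpk* did not differ beyond their spread, and *Hnrnpa1* followed at 22.9 ± 3.46. In *c-Myc* libraries the order was *Hnrnpa1* at 93.8 ± 3.66, *Srsf2* at 79.98 ± 0.810, *Hnrnpa0* at 72.3 ± 0.0271, *Hnrnpab* at 72.0 ± 3.07 and *Snrpb* at 66.0 ± 3.70 (SD, n = 2). Exons of other genes covered 25.3% of the exon bases of *Srsf2* and 29.1% of those of *Hnrnpab*. Of the 86-base stretches of *Hnrnpa1*, 26.5% were shared, so both orders are uncertain. Within the Sm ring, whose proteins are present once each in a ring, *Snrpb* was at 22.2 ± 2.12 CPM per kb in juvenile libraries and the other 6 genes were between 1.13 for *Snrpg* and 3.49 for *Snrpd2*. In *c-Myc* libraries *Snrpb* was at 66.0 and the others between 5.33 and 18.9. Across the 65 genes the log2 fold change in *c-Myc* libraries had a Spearman rho of -0.28 with exon length and of -0.36 with the juvenile level in CPM. These are descriptions over genes that share the same 6 libraries, and the juvenile level also enters the fold change.

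**Figure D4:**
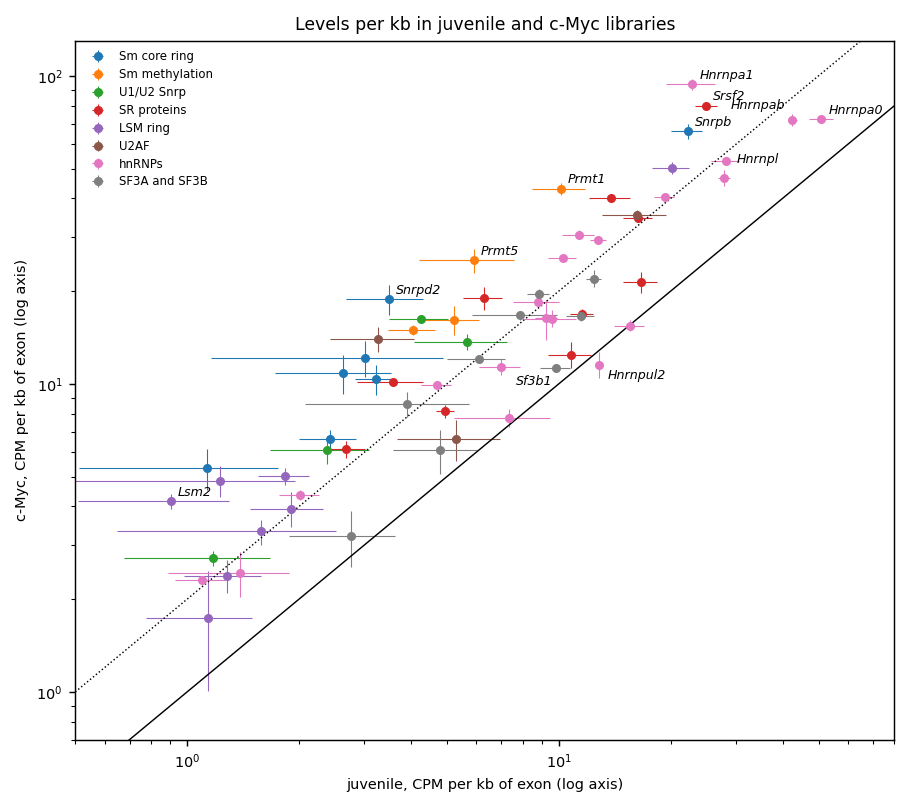
Mean level of each splicing gene in CPM per kb of merged exon in juvenile libraries (x axis, n = 4) and in *c-Myc* libraries (y axis, n = 2), both on log axes, with bars of ± SD and colours for roles. The solid line marks equal levels and the dotted line a ratio of 2. Sm ring and methylation genes lie above the dotted line, and *Sf3b1* and *Hnrnpul2* lie close to the solid line.

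Adding the *R172H* allele was compared within the induced groups, which share the interval, the trim and the *c-Myc* transgene. The splicing genes were at nearly the same levels with and without it. Of 65 genes, 0 were called in either direction by edgeR at an adjusted p below 0.05, where 0.469% of all genes were (0.00794% higher and 0.461% lower), and DESeq2 also called 0. At an unadjusted p below 0.05 the count was 0, where 4.68% of all genes passed. The median log2 fold change was 0.06, against 0.00 for all genes, 47 of 65 values were positive (49.2% of all genes), and they ran from -0.24 for *Snrpa1* to 0.41 for *Hnrnph2*. Both *c-Myc* + *R172H* libraries were above both *c-Myc* libraries in 18 genes (17.5% of all genes) and below in 6 (27.5%). By role, 18 of 20 hnRNP values were positive, with a median of 0.11. The medians of the arginine methylation genes and of the U1 and U2 genes were -0.06 and -0.03. The sign of these small medians depends on the scaling, since with library totals all roles were above 0.

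*Hnrnph2* was at 32.2 and 35.5 CPM in *c-Myc* and at 45.9 and 42.2 CPM in *c-Myc* + *R172H* libraries, a log2 fold change of 0.41 ± 0.23 with an unadjusted p of 0.105 (edgeR, adjusted p = 1). The gene is X-linked, and *Xist* differed between replicates 1 and 2 of both groups as given above. *Hnrnpa3* was at 58.7 and 63.9 against 74.2 and 71.8 CPM (0.28 ± 0.15), and *Hnrnpd* at 73.1 and 72.7 against 87.0 and 85.5 CPM (0.27 ± 0.13). At the other end *Snrpa1* was at 52.1 and 51.0 against 43.1 and 42.4 CPM (-0.24 ± 0.17), *Lsm1* gave -0.18 ± 0.48, *Sf3b4* gave -0.18 ± 0.37 and *Clns1a* gave -0.14 ± 0.17. In these genes the libraries of a group lay closer to each other than to the other group for *Hnrnph2*, *Hnrnpa3*, *Hnrnpd* and *Snrpa1*, although none passed the test. A fit of these 4 libraries alone called 4 splicing genes higher, including *Hnrnph2* (edgeR adjusted p = 0.00360), with 2 residual degrees of freedom. With the replicate number as a block, 0 were called in the shared fit and 8 were called higher in the fit of these 4 libraries, with 1 residual degree of freedom. The 8 included *Hnrnph2* (0.42, edgeR adjusted p = 0.000368) and *Srsf5* (0.26, edgeR adjusted p = 0.0105), which was at 65.3 and 69.0 CPM in *c-Myc* and at 74.4 and 82.5 CPM in *c-Myc* + *R172H* libraries. With 2 libraries a group, a p that misses the threshold does not show equal levels.

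Set against the same juvenile libraries, *c-Myc* + *R172H* libraries also had 54 of 65 splicing genes higher (30.4% of all genes) and 0 lower (26.3% of all genes) by edgeR. DESeq2 also called 0 lower, and 56 had an unadjusted p below 0.05 in either direction (61.2% of all genes). With a log2 fold change of at least 1, 40 were higher (19.6% of all genes), and the median was 1.20 against 0.08 for all genes. Of the 65 values 64 were positive (52.4% of all genes), and both libraries lay above all juvenile libraries in 55 genes (36.6% of all genes) and below them in 1 (30.1%). This comparison shares its controls with the one above, so the 2 are not independent. There were 53 genes called in both, *Srsf9* (0.33 ± 0.13, edgeR adjusted p = 0.0536) and *Hnrnph3* (0.91 ± 0.33, edgeR adjusted p = 0.0339) being the exceptions. *Sf3b4*, among the 53, was not called here in a fit of the 2 groups alone (0.88, edgeR adjusted p = 0.0567). Nor was it called without juvenile replicate 1 (0.80, edgeR adjusted p = 0.0732). The highest values were those of *Snrpd2* (2.45 ± 0.18), *Lsm7* (2.30 ± 0.40), *Snrpg* (2.28 ± 0.39) and *Lsm2* (2.25 ± 0.31), and *Hnrnpa1* reached 2.20 ± 0.12. *Hnrnpul2* was the lowest at -0.14 ± 0.10.

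The age comparison, juvenile against adult, asks how osteoblasts of a growing metaphysis differ from those of older mice. The splicing genes were at similar levels at the 2 ages. In edgeR, 0 of 64 genes tested were called in either direction, where 5.12% of the 11345 genes tested were (1.89% higher and 3.23% lower), and 10 had an unadjusted p below 0.05, where 19.7% of all genes did. DESeq2 called 2 genes lower in juvenile libraries, *U2af1* and *Hnrnpr*. The median log2 fold change was -0.07, against 0.00 for all genes, with 22 of 64 values positive (50.1% of all genes). All 4 juvenile libraries were above the adult ones in 4 genes (6.17% of all genes) and below them in 4 (6.75%).

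The genes lower in juvenile libraries without overlap were *U2af1*, *Hnrnpr*, *Hnrnpc* and *Snrpd3*. *U2af1*, given above, had a log2 fold change of -0.74 ± 0.24 (edgeR adjusted p = 0.0813). *Hnrnpr* was at 27.5, 25.9, 18.9 and 25.0 CPM in juvenile and at 34.3, 38.7, 30.4 and 33.9 CPM in adult libraries (-0.50 ± 0.16, edgeR adjusted p = 0.0771). *Hnrnpc* was at 50.2, 44.3, 55.2 and 46.2 CPM in juvenile and at 71.9, 72.4, 56.6 and 59.8 CPM in adult libraries (-0.42 ± 0.13, edgeR adjusted p = 0.0693). These 3 lay nearest to the threshold and did not pass it. The genes higher in juvenile libraries without overlap were *Hnrnpd* (0.45 ± 0.19), *Hnrnpul1* (0.33 ± 0.12), *Srsf4* (0.33 ± 0.15) and *Sf3b2* (0.16 ± 0.11), with *Hnrnpd* at 38.0, 31.8, 32.0 and 36.5 CPM in juvenile and at 30.6, 18.4, 20.0 and 31.6 CPM in adult libraries. The largest values of either sign belonged to lowly expressed genes with wide errors, *Snrpf* at -0.86 ± 0.47 and *Lsm3* at 0.63 ± 0.36. By role the medians were -0.36 for the Sm ring, -0.31 for the LSM ring, -0.11 for SR proteins, -0.04 for hnRNPs and 0.12 for SF3A and SF3B. With library totals the median of all genes moved to -0.24, that of the splicing genes to -0.31 and that of SF3A and SF3B to -0.09. Adult replicate 4 held the highest adult value in 33 of the 64 genes (51.6%, against 24.9% of all genes), and its summed chondrocyte markers, 81997 CPM, were within the range of the other adult libraries. Without it 0 genes were called. The higher chondrocyte levels of adult libraries given above moved with the age groups, and their part in these values was not tested.

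Other genes of the spliceosome, which the symbol rule did not reach, were taken from 5 lists of 102 genes in all. In *c-Myc* against juvenile libraries, 65 of the 94 tested were higher and 6 lower in edgeR, where 28.4% and 25.0% of all genes were, with a median log2 fold change of 0.92. Other snRNP proteins, such as those of U4, U5 and U6, had 18 of 21 higher and 0 lower, led by *Ppih* (2.63 ± 0.44), a cyclophilin of the U4/U6 particle. The list of the SMN complex, which loads the Sm ring onto snRNA, and of other snRNP assembly factors had 10 of 13 higher and 0 lower. It was led by *Gemin6* (2.69 ± 0.47). In juvenile libraries *Ppih* was at 0.372 to 2.37 CPM and *Gemin6* at 0.278 to 2.48 CPM. Their lowest values are at or under the floor of 3 counts, so these folds are uncertain. The catalytic proteins and helicases had 19 of 26 higher and 0 lower, led by *Isy1* (1.69 ± 0.17).

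The kinases of SR proteins and the other regulators held genes of both directions. Among 7 kinases, 2 were higher and 1 lower, close to the 28.4% and 25.0% of all genes at this size of list, with *Srpk1* at 2.05 ± 0.20 and *Clk3* at -0.75 ± 0.11. Among 27 other splicing regulators, 16 were higher, led by *Mbnl3* (2.46 ± 0.36), and 5 were lower, led by *Ptbp3* (-0.58 ± 0.13), followed by *Mbnl2*, *Rbfox2*, *Rbm5* and *Qk*. With library totals none of the 94 was called lower, and all 6 turned. *Clk3* and *Ptbp3* became 0.09 and 0.25 without a call, while *Mbnl2*, *Rbfox2*, *Rbm5* and *Qk* became 0.34, 0.42, 0.43 and 0.48 and were called higher in edgeR. In *c-Myc* + *R172H* against *c-Myc* libraries 0 of the 94 were called by edgeR, and 3 had an unadjusted p below 0.05, where 4.68% of all genes did. In the age comparison 1 of 93 was called, where 5.12% of all genes were. It was *Ptbp1*, the polypyrimidine tract binding protein, higher in juvenile libraries by 0.41 ± 0.11 (edgeR adjusted p = 0.0376), and by 0.16 without a call with library totals.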

How the data were processed

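Per the labels and the methods of the study, total RNA of sorted mGFP+ CD31-CD45-TER119- cells was made into libraries with a directional kit and sequenced as 86-base single-end reads. The submitters' processing notes and methods name bcl2fastq (2.20), cutadapt (4.6), STAR (2.7.11a) on mm10 and HTSeq (2.0.5), with different GENCODE releases for alignment and counting. The strand setting of the counting is not given in the sources used here. The authors deposited raw counts per gene for uniquely mapped reads, without normalization.

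Groups came from the titles. Counts were tested with edgeR 4.0.16 in R 4.3.3 (filterByExpr, TMM, robust quasi-likelihood F test), with Benjamini-Hochberg adjustment over all genes tested and calls below 0.05. The age fit used the 8 juvenile and adult libraries and tested 11345 genes, and the 3 comparisons with induced groups shared 1 fit of the 8 juvenile and induced libraries with 12588 genes. Each standard error was taken from the F statistic as |log2 fold change|/√F. Levels are CPM on the TMM scale of all 12 libraries. Exon lengths, overlaps and shared stretches are from a GENCODE annotation of GRCm38 of another release than the authors used, and promoters from the RefSeq table of GRCm38. The replicate counts differed beyond sampling noise in every pair. The test was also run for each fit on simulated counts with known changes. Those counts had the same spread for every gene, few changed genes and no shift in collagen or *Gm26917*. The simulation therefore does not show how the test behaves on libraries as different as these. Counts have a precision set by depth, from 0.137 to 0.417 CPM for 3 counts.

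The genes and lists were chosen with earlier results of these data known. Named genes were fixed members of each role, the highest and lowest log2 fold change of each role and comparison, and genes not tested, and for other lists the called gene with the largest rise and fall. The other genes named were chosen after their values were seen. The alternatives were other scalings, filters, DESeq2 1.42.0, other sets of libraries, a replicate block and leaving out each library.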

Additional observations from a re-analysis of the deposited data

Results flagged for a closer look

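Within the groups of 4 libraries, a gene was listed where its highest or lowest library stood apart from the other 3 by Dixon's criterion at 95%. Of 94 such tests on the juvenile and adult levels of the splicing genes named by rule, 9 were listed. Chance would list about 5% of genes chosen without regard to their values. Some of these genes were chosen for the highest or lowest fold change of a role, so their share is not set against that rate. In juvenile libraries these were *Snrpa1* at 17.2 CPM in replicate 1, with the others at 12.2 to 12.5 CPM, *Srsf4* at 46.2 CPM in replicate 3, with the others at 35.6 to 36.4 CPM, and *Hnrnpul2* at 92.9 CPM in replicate 4, with the others at 90.1 to 90.6 CPM. In adult replicate 1 they were *Lsm6* at 20.2 CPM against 6.98 to 8.80 CPM in the others, *Snrpd3* at 15.3 CPM against 10.6 to 11.3 CPM and *U2af1l4* at 6.38 CPM against 8.69 to 9.05 CPM. In the other adult libraries they were *Prmt5* at 20.1 CPM in replicate 2 against 25.7 to 26.3 CPM, *Srsf5* at 78.6 CPM in replicate 4 against 34.7 to 41.7 CPM, and *Srsf12* at 0.129 CPM in replicate 3 against 0 in the others. The value of *Srsf12* is 1 count, under the floor of 3 counts, and a lone count among zeros meets the criterion by construction, so it is no outlier of level.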

How the results depend on the processing

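The splicing genes called higher in *c-Myc* against juvenile libraries numbered 52 to 57 except with library totals (64), and 50 to 54 when 1 library was left out, with *Sf3b4* (1.01, adjusted p = 0.0894) and *Lsm3* (0.89, 0.0839) not called without *c-Myc* replicate 1 in edgeR. Leaving out an induced library leaves 1 in its group, which is assumed to vary like the other groups. With all 12 libraries in 1 fit *Srsf5* was not called (0.54, edgeR adjusted p = 0.0640). In *c-Myc* + *R172H* against juvenile libraries they numbered 52 to 57 except with library totals (65), and 50 to 56. With a log2 fold change of at least 1, library totals gave 60 and 64. The median of these genes moved with library totals to 1.92, 2.24, 0.27 and -0.31 and that of all genes to 0.87, 1.11, 0.21 and -0.24 for *c-Myc* and *c-Myc* + *R172H* against juvenile, *c-Myc* + *R172H* against *c-Myc* and juvenile against adult. Without a filter the median of all genes was 0.20 in *c-Myc* + *R172H* against juvenile libraries.

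In juvenile against adult libraries the genes called lower were 4 with library totals, 3 with all 12 libraries in 1 fit (with 1 higher) and 2 with DESeq2, and 0 in each leave-one-out fit. In *c-Myc* + *R172H* against *c-Myc* libraries, 4 were higher in a fit of the 2 groups alone and 8 with a replicate block in that fit, an alternative added after seeing the data, and 0 in all others.

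Some small values changed sign. With library totals, *Prmt1*, *Snrpb*, *Snrpa1* and *U2af2* became -0.15, -0.036, -0.11 and -0.077 in the age comparison. In *c-Myc* + *R172H* against *c-Myc* libraries *Clns1a*, *Hnrnpc*, *Sf3b4*, *Snrpb*, *Lsm1* and *Srsf2* became 0.068, 0.11, 0.024, 0.086, 0.031 and 0.17. Against juvenile libraries *Hnrnpul2* became 0.66 and 0.90. *Hnrnph2* became -0.017 with upper-quartile scaling. Leaving out 1 library, *Snrpa1* (-0.020 to 0.17) and *Sf3b5* (-0.28 to 0.023) turned in the age comparison, *Hnrnph2* (-0.088 to 0.23) and *Sf3b6* (-0.029 to 0.41) in *c-Myc* against juvenile, *U2af1l4* (-0.024 to 0.28), *U2af2* (-0.0075 to 0.065) and *Sf3a2* (-0.030 to 0.21) in *c-Myc* + *R172H* against *c-Myc*, and *Sf3b6* (-0.15 to 0.36) in *c-Myc* + *R172H* against juvenile libraries. The cause was not tested.

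No label says that a replicate number marks a shared source. The numbers are those of the titles. The library names of the adult samples carry other numbers, so the pairs of the age comparison were arbitrary. The deviations of same-numbered libraries correlated between -0.07 and 0.05 with the controls and at 0.16 between the induced groups. With 2 libraries a group the deviations mirror each other, so 0.16 is 1 value and not the agreement of separate pairs. *Xist* also followed the number in the induced libraries. With the replicate block the splicing genes called higher were 57, 57, 0 and 0 in *c-Myc* and *c-Myc* + *R172H* against juvenile, *c-Myc* + *R172H* against *c-Myc* and the age comparison, and *Sf3b6* became -0.031 in *c-Myc* + *R172H* against juvenile. Over all genes the block gave 30 higher and 296 lower in *c-Myc* + *R172H* against *c-Myc* libraries, where the fit without it gave 1 and 58. With 2 libraries in each induced group and few counts for *Lsm5*, *Lsm7* and *Snrpg*, small differences are beyond these data.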
